A study of Homo sapiens with 4 samples.

Results

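The genes described here are the cytosolic ribosomal protein genes of RWP-1 cells, an established human pancreatic cancer cell line. They were taken by symbol: RPL or RPS with a number and an optional A, X or L, the stalk genes RPLP0 to RPLP2, and RPSA. This leaves out pseudogenes and ribosomal protein kinases. Of 14884 genes with a single symbol in the platform annotation, 50 met the rule, 32 of the large subunit (RPL) and 18 of the small subunit (RPS). The 3 RPLP genes, RPSA, RPL3, RPS27A and other family members without a probe set of a single symbol are not analysed here. RNA was measured on 4 single-channel oligonucleotide arrays, 2 of untreated RWP-1 cells (Ctrl) and 2 of RWP-1 cells given rGAL1, read here as recombinant galectin-1, a lectin that binds sugars; the labels hold only the short form. They state no dose, duration or vehicle, and all 4 arrays come from this 1 line. The design asks which transcripts differ after rGAL1. For these genes the questions were how bright they are, how far they vary between arrays, and whether large and small subunit genes differ between the groups.

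Cytosolic ribosomes are built from ribosomal RNA and a set of ribosomal proteins, most of them present in a single copy per ribosome. The small subunit reads the messenger RNA and the large subunit joins amino acids. Most ribosomal protein mRNAs begin with a cytosine followed by a run of pyrimidines, the terminal oligopyrimidine (TOP) tract. Through this tract TOR signalling controls their translation, so the output of these genes can shift without a shift in mRNA level. Arrays measure mRNA only. Human ribosomal protein genes also have many processed pseudogenes of near-identical sequence. The RefSeq gene table listed 957 pseudogene records for 45 of the 50 members, from 4 for RPS9 to 64 for RPL31, and 0 for the 5 copies whose symbols end in L. Signal of a member's probes can therefore include such sequences.

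Start-site sequences are shown first because the TOP tract is the best known feature that these genes share and the symbol rule did not use. RefSeq start windows (GRCh38.p14) were found for 45 members, and RPL3L, RPL8, RPL30, RPL39L and RPS15A had none in the table. Each line gives 10 bases before the annotated start and 20 from it on, with the pyrimidine tract in capitals. The genes are a selection. RPL31, RPL34, RPL29, RPS27L, RPS28 and RPS6 come from the lowest differences, and RPL12, RPS18 and RPS16 from the highest. RPL24 is the steadiest member, RPL39 has the longest tract, and RPL36AL, RPL10L and RPS27L are copies. RPL6, which is among the highest of the large subunit and has no tract, is not shown.
RPL31 (chr2:101002279-101002308, plus strand): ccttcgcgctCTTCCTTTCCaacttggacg
RPL34 (chr4:108620566-108620595, plus strand): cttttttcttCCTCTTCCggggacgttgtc
RPL29 (chr3:51995876-51995905, minus strand): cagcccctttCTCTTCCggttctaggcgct
RPL12 (chr9:127451387-127451416, minus strand): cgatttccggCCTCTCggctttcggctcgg
RPL24 (chr3:101686699-101686728, minus strand): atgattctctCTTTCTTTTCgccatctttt
RPL39 (chrX:119791611-119791640, minus strand): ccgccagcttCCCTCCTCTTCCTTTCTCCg
RPS28 (chr19:8321486-8321515, plus strand): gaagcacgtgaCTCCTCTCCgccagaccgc
RPS6 (chr9:19380217-19380246, minus strand): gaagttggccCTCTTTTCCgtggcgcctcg
RPS18 (chr6:33272065-33272094, plus strand): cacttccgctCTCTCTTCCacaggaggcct
RPS16 (chr19:39435930-39435959, minus strand): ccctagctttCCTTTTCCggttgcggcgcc
RPL36AL (chr14:49620607-49620636, minus strand): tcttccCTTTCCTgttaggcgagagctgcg
RPL10L (chr14:46651762-46651791, minus strand): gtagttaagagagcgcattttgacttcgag
RPS27L (chr15:63157458-63157487, minus strand): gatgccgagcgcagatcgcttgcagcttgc

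A tract was counted where a C within 5 bases of the annotated start was followed by at least 5 further bases that were each C or T. By this rule 36 of 45 members (80.0%) had a tract, against 13.7% of 27305 genes with a window and 15.1% of 15843 protein-coding genes. Where several C met the rule, the one nearest the annotated start was taken, and for genes with several windows the window with the nearest. Counted so, the tract began at the annotated start in 29 members, and its length from there ran from 6 to 19 bases with a median of 8. Runs of pyrimidines that reach farther upstream, as in RPL34, are shown in capitals only from that C on. The share was 82.1% of 28 large subunit genes and 76.5% of 17 small subunit genes. The 9 members without one were RPL6, RPL9, RPL10L, RPL17, RPL27, RPS15, RPS26, RPS27L and RPS29. A missing tract describes these letters near the annotated start only. Of 4 motifs searched on both strands of the 300-base windows, CCGGAAG, a motif of ETS factors, was in 31.1% of members and 12.2% of all genes. TCTCGCGA was in 9 of 45 members and 1.37% of all genes, AAGATGGC, the YY1 core, in 8.89% and 3.52%, and TATAAA in 6.67% and 14%. Among protein-coding genes the shares were 16.5% for CCGGAAG, 2.04% for TCTCGCGA, 4.66% for AAGATGGC and 12.4% for TATAAA. A match is a description of letters, not of binding.

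**Figure D1:**
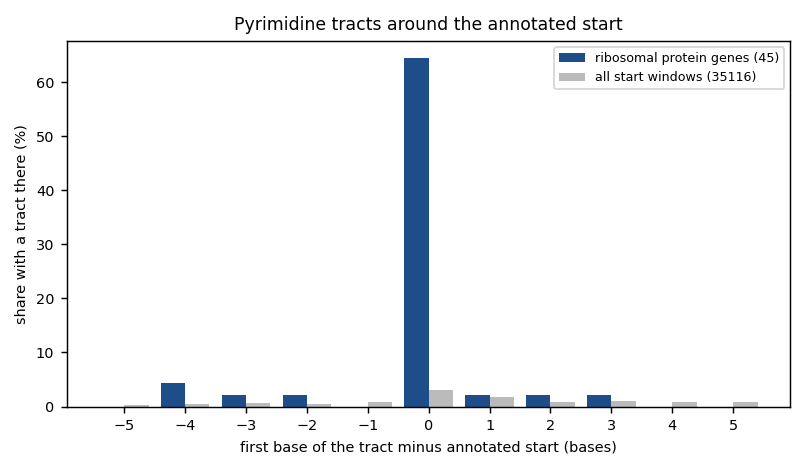
Position of the pyrimidine tract relative to the annotated start (x axis, bases) and share with a tract beginning there (y axis, percent), taking the qualifying C nearest the start, for 45 ribosomal protein genes (blue) and all 35116 RefSeq start windows (grey). The tract began at the annotated start itself in 64.4% of the members and 3.02% of all windows.

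Expression is given in log2 units after RMA, with the brightest probe set standing for a gene, and precision is limited by having only 2 arrays a group. The labels of the array rGAL1 2 conflict: title and source name give rGAL1, and the treatment entry gives control. It was analysed as rGAL1, and as Ctrl in an alternative. Nothing in the labels states that arrays of a group were separate cultures, so p-values reflect the spread between arrays, which may be technical. Of 9 ductal and epithelial markers 7 were measured, and all 7 lay above the dim level of 4.70, the median mean of all probe sets. Mean levels of the 7 ran from 5.17 to 12.4, with a median of 9.43. Their summed log2 values ran from 62.8 to 63.1 in Ctrl and from 62.1 to 62.5 in rGAL1, and their part in the results below was not tested. Markers of other cell types lay above the dim level in 1 of 2 acinar (CPA1), 2 of 3 endocrine (CHGA, SST), 1 of 2 leukocyte (CD14), 1 of 2 endothelial (VWF) and 0 of 2 fibroblast genes (DCN, LUM), at 5.37 or less.

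Ribosomal protein genes were among the brightest on the array. In Ctrl the median level was 8.49 over the 50 members against 5.82 over all named genes, 49 of 50 lay above the dim level, and the median member was brighter than 94.4% of all probe sets. Over the large subunit the median Ctrl level was 8.08, with a range from 4.18 to 12.7. Over the small subunit it was 8.75, from 5.91 to 12.7. Probes differ in how well they bind, so these levels do not rank genes by abundance, and the subunit medians describe probe sets. Leaving out the 5 copies brought the medians to 8.54 and 8.86. RPL41, the smallest of the ribosomal proteins, shows how far probe sets of the same gene can lie apart: its 5 probe sets had Ctrl means of 12.7, 9.46, 8.76, 8.15 and 6.77.

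The brightest large subunit probe sets were those of RPL41 and RPL12, a protein at the base of the stalk that recruits elongation factors. RPL12 measured 12.65 and 12.67 on the arrays Ctrl 1 and Ctrl 2, and 12.74 and 12.68 on rGAL1 1 and rGAL1 2. Values below keep this order of arrays. In the small subunit the brightest were RPS28 and RPS27. RPS27 measured 12.58 and 12.55 in Ctrl and 12.51 and 12.57 in rGAL1 (SD 0.024 and 0.044, n = 2), and the groups overlapped. Such levels lie at the top of the array's range.

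Of the 5 copies whose symbols end in L, 4 had Ctrl means from 4.18 to 6.39, and RPL36AL had 7.83. RPL10L, a testis copy of RPL10, was the only member under the dim level, at 4.40 and 3.96 in Ctrl and 3.95 and 4.36 in rGAL1. RPL10, which completes the large subunit late in its assembly, measured 11.60 and 11.52 in Ctrl and 11.48 and 11.52 in rGAL1. RPL3L, the copy used in heart and skeletal muscle, gave 5.93 and 5.87 in Ctrl and 5.63 and 6.02 in rGAL1. Its lowest and highest arrays were thus both rGAL1. RPL39L, the germ cell copy of RPL39, gave 6.44 and 6.33 in Ctrl and 6.48 and 6.29 in rGAL1, again with overlapping groups. Copies and their counterparts are near-identical in places, so some signal may be shared between their probes.

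Members varied little between arrays of the same group. The pooled SD within groups had a median of 0.060 log2 units over the 50 members, against 0.093 over all named genes. Brightness accompanies this gap: the 32 members at a mean of 8 or more had a median SD of 0.049, the 1702 other named genes in that range 0.047, and the 18 dimmer members 0.088. The limit of 8 was chosen after the values were seen. The medians were 0.056 for large and 0.073 for small subunit genes, so small subunit genes varied more on this measure, and the large subunit value was 0.046 without the copies. The difference between the 2 arrays of a group had a median size of 0.063 in Ctrl and 0.062 in rGAL1. Among the 18 dimmer members it was 0.074 in Ctrl and 0.13 in rGAL1, and among the 32 brighter ones 0.063 and 0.057.

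RPL24, which forms a bridge between the subunits, was the steadiest member, with 8.61 and 8.60 in Ctrl and 8.52 and 8.53 in rGAL1 (pooled SD 0.0052). RPL30, an RNA-binding protein of the large subunit, came next, with 7.65 and 7.65 in Ctrl and 7.71 and 7.68 in rGAL1 (pooled SD 0.014). In both genes the groups did not overlap, in opposite directions. The least steady were RPL10L (0.30) and RPL3L (0.19) in the large subunit. In the small subunit they were RPS16, whose tail reaches the decoding centre, at 0.19 and RPS26, which lines the exit channel of the messenger, at 0.16. RPS16 measured 8.82 and 8.45 in Ctrl and 8.67 and 8.76 in rGAL1. Ctrl 2 alone was low. RPS26 measured 6.82 and 6.82 in Ctrl and 6.60 and 6.92 in rGAL1. Here the rGAL1 arrays lay on either side of a close Ctrl pair.

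**Figure D2:**
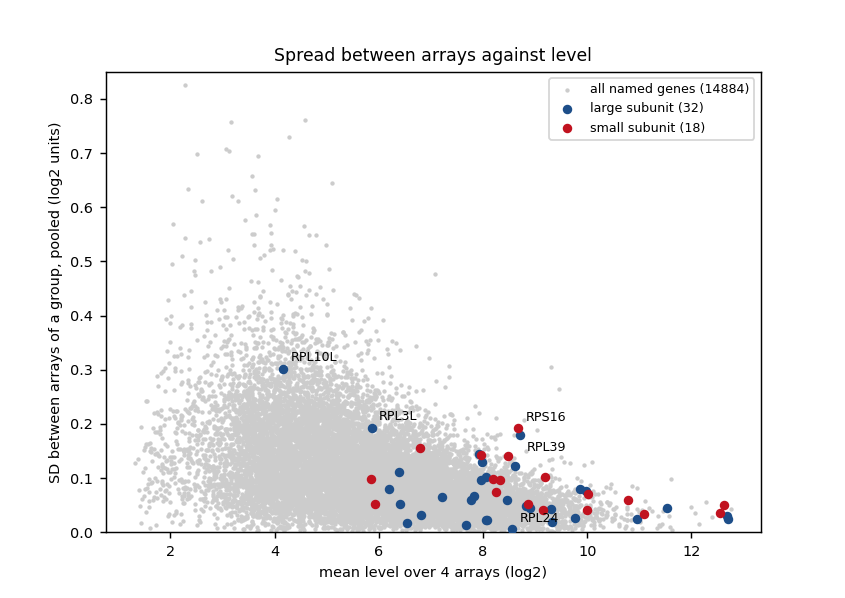
SD between arrays of the same group, pooled over Ctrl and rGAL1 (y axis, log2 units, n = 2 arrays per group), against mean level over the 4 arrays (x axis, log2), for 32 large subunit genes (blue), 18 small subunit genes (red) and all 14884 named genes (grey). Spread is larger among dim genes, and RPL10L at 0.30 is the member with the largest.

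After rGAL1 the ribosomal protein genes lay slightly lower as a set, and no member passed the test. Of 50 members, 35 had a lower mean in rGAL1 and 15 a higher one. A lower mean was found in 48.3% of all named genes. The median difference, rGAL1 minus Ctrl, was -0.034 log2 units over the members (1.02-fold lower), against 0.0056 over all named genes and -0.0037 over all 53617 probe sets. In 14 members the 2 rGAL1 values were under both Ctrl values, which is 28%, where 17% of all named genes did so. In 3 members, 6%, both lay above, against 20.2% of all named genes. For members at a mean of 8 or more these shares were 25% and 6.25%. Other named genes in that range gave 17.9% and 28.6%. No member had an adjusted p under 0.05 in limma, where 0% of all probe sets did, and 0 had an unadjusted p under 0.05, against 2.98% of named genes. The smallest adjusted p of a member was 0.919 (limma).

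All differences were small. The 50 ran from -0.20 to 0.086, and 43 were under 0.1 in size. Each member's 95% interval from the moderated fit included 0, with a median SE of 0.10. The outermost bounds were -0.60 and 0.54, both of RPL10L. Over the other members they were -0.53 for RPL34 and 0.49 for RPS16. In 23 members (46%) the difference exceeded the pooled SD between arrays, where 46.2% of all named genes did so. Each array carries RNA from many cells, so fewer cells with a transcript and less transcript per cell cannot be told apart, and RMA sets all arrays to a common scale, so a change in total RNA would not show.

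**Figure D3:**
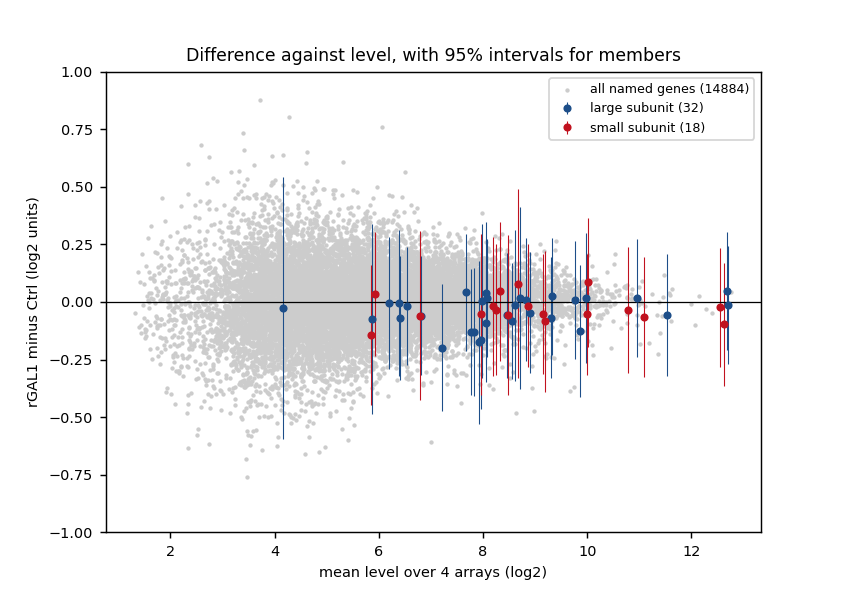
Difference between rGAL1 and Ctrl (y axis, log2 units) against mean level over the 4 arrays (x axis, log2), for 32 large subunit genes (blue) and 18 small subunit genes (red) with 95% intervals from limma, over all 14884 named genes (grey points). All 50 intervals cross 0, and the members' differences lie between -0.20 and 0.086.

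Among the 4 arrays rGAL1 1 stood lowest. It held the lowest value in 24 of 50 members (48%), where 23.4% of all named genes were lowest on it. The median deviation from a member's mean over the 4 arrays was 0.022 on Ctrl 1, 0.016 on Ctrl 2, -0.033 on rGAL1 1 and -0.0060 on rGAL1 2. Other named genes at a mean of 8 or more moved the other way on rGAL1 1, with a median deviation of 0.014. The 4 comparisons of an rGAL1 with a Ctrl array had member medians of -0.074 (rGAL1 1 against Ctrl 1), -0.037 (rGAL1 1 against Ctrl 2), -0.014 (rGAL1 2 against Ctrl 1) and -0.016 (rGAL1 2 against Ctrl 2). Between the rGAL1 arrays the median was 0.027, higher on rGAL1 2, and between the Ctrl arrays it was -0.0079. The set's median difference of -0.034 is thus of the size seen between the rGAL1 arrays. It was -0.014 without rGAL1 1 (30 of 50 lower) and -0.054 without rGAL1 2 (35 of 50 lower).

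**Figure D4:**
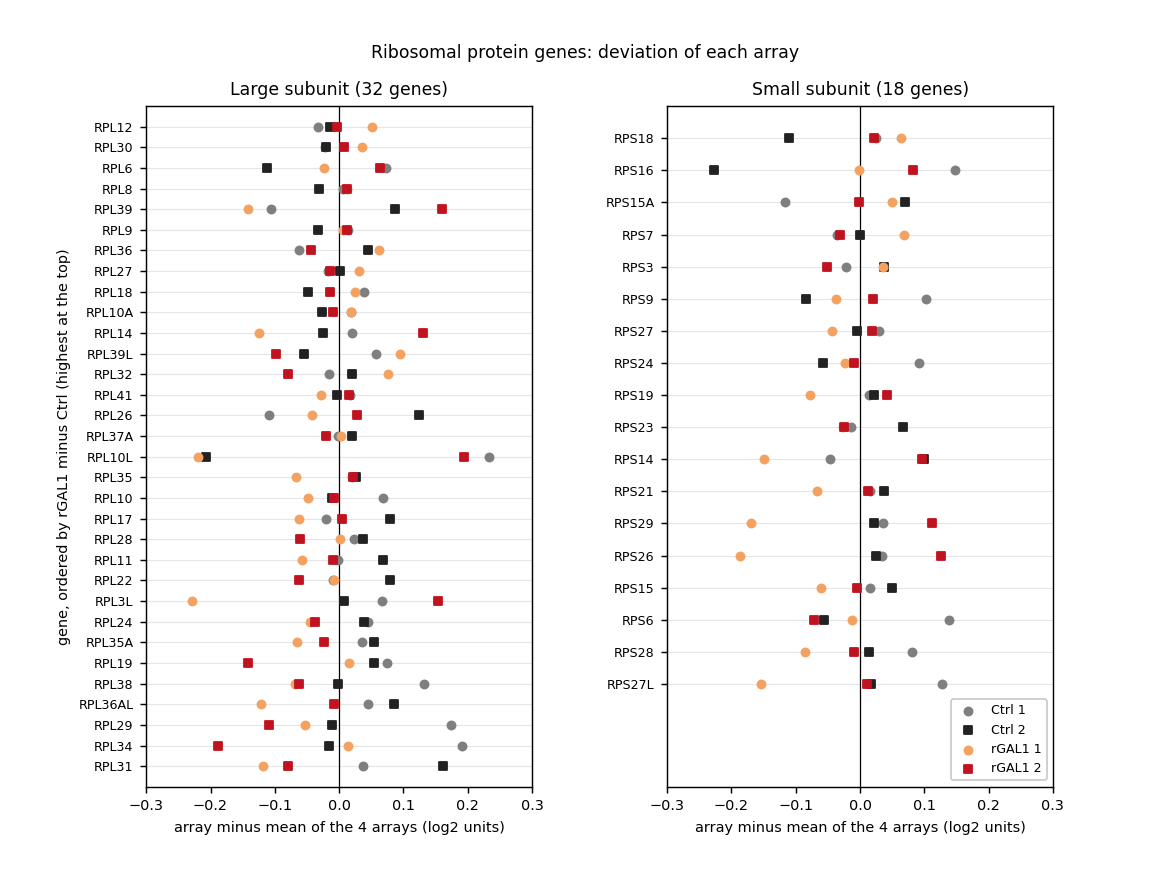
Value on each array minus the gene's mean over the 4 arrays (x axis, log2 units) for each ribosomal protein gene (y axis, ordered by rGAL1 minus Ctrl), with Ctrl arrays in grey and black and rGAL1 arrays in orange and red. The array rGAL1 1 is the lowest in 14 of 32 large and 10 of 18 small subunit genes.

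The difference between the subunits is given as a description and was not tested. Of the large subunit 21 of 32 were lower, with a median of -0.022, and of the small subunit 14 of 18, with a median of -0.044. Both rGAL1 values were under both Ctrl values in 9 large and 5 small subunit genes (28.1% and 27.8%, against 17% of named genes), and above them in 3 and 0 (9.38% and 0%, against 20.2%). The difference between the medians, large minus small, was 0.022, about as large as its SD between arrays of a group, 0.018. It was -0.023 without rGAL1 1, so its sign rests on that array. Without it the small subunit median was -0.0033. The median deviation of small subunit genes was -0.040 on rGAL1 1 and 0.012 on rGAL1 2, and that of large subunit genes -0.026 and -0.0096.

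In the large subunit the lowest differences were those of RPL31, RPL34 and RPL29. RPL31, which sits at the exit of the nascent peptide tunnel, measured 7.26 and 7.38 in Ctrl and 7.10 and 7.14 in rGAL1, a difference of -0.20 (SE 0.11, 95% interval -0.48 to 0.078). Its groups did not overlap, and it had the smallest unadjusted p of any member (0.123 in limma, adjusted p = 0.919). The difference was -0.26 without Ctrl 1 and -0.14 without Ctrl 2. RPL34 measured 8.11 and 7.90 in Ctrl and 7.93 and 7.73 in rGAL1, a difference of -0.18 (SE 0.13). Here Ctrl 2 fell between the rGAL1 arrays, and counting rGAL1 2 as Ctrl turned the difference to 0.018. It was -0.072 without Ctrl 1 and -0.074 without rGAL1 2. RPL29, also found at the cell surface as a heparan sulfate binding protein, measured 8.13 and 7.95 in Ctrl and 7.91 and 7.85 in rGAL1, a difference of -0.16 (SE 0.12). The high value was that of Ctrl 1, and without it the difference was -0.070.

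RPL36AL, a copy of RPL36A found in most tissues, measured 7.81 and 7.85 in Ctrl and 7.64 and 7.76 in rGAL1, a difference of -0.13 (SE 0.10). RPL38, linked in mice to the translation of patterning genes, measured 7.96 and 7.83 in Ctrl and 7.76 and 7.77 in rGAL1, a difference of -0.13 (SE 0.11). RPL19, which reaches across to the small subunit, measured 9.93 and 9.91 in Ctrl and 9.87 and 9.72 in rGAL1, a difference of -0.13 (SE 0.11). In these 3 genes the rGAL1 values were under both Ctrl values. With 1 array left out the differences came closest to 0 at -0.073 for RPL36AL (without rGAL1 1), -0.063 for RPL38 (without Ctrl 1) and -0.049 for RPL19 (without rGAL1 2). The other probe set of RPL19 differed by -0.030, and with rGAL1 2 counted as Ctrl the brighter one gave 0.020. RPL24 differed by -0.082 (SE 0.097) on the values given above. Its 2 groups are far apart for their own spread, and the moderated SE draws on the variance of all probe sets.

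The 6 highest differences of the large subunit were close to 0. RPL12 differed by 0.048 (SE 0.099) and RPL30 by 0.043 (SE 0.097). RPL8, next to the peptidyl transferase centre, measured 9.32 and 9.29 in Ctrl and 9.33 and 9.33 in rGAL1, a difference of 0.025. In these 3 genes both rGAL1 arrays lay above both Ctrl arrays, by narrow margins. RPL6 measured 8.13 and 7.94 in Ctrl and 8.03 and 8.12 in rGAL1, a difference of 0.040. RPL39, a short protein of the tunnel wall, measured 8.60 and 8.79 in Ctrl and 8.56 and 8.86 in rGAL1, a difference of 0.019. RPL9 measured 8.08 and 8.04 in Ctrl and 8.08 and 8.08 in rGAL1, a difference of 0.019. Without Ctrl 2 RPL6 gave -0.054 and RPL9 -0.0044, and without rGAL1 2 RPL39 gave -0.13. All 3 overlapped between groups, and in RPL39 the arrays numbered 2 were the higher ones in both. The second probe set of RPL39 had the same order, with 7.66 and 7.80 in Ctrl and 7.70 and 7.82 in rGAL1. RPL10, at -0.056, RPL10L, at -0.026, RPL39L, at -0.0036, and RPL3L, at -0.074, complete the large subunit genes with full values. The remaining 15 ran from -0.089 in RPL35A to 0.017 in RPL36. Picked from these after their values were seen, RPL11, which with RPL5 binds the p53 regulator MDM2 under nucleolar stress, differed by -0.067, and RPL22 by -0.070.

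In the small subunit the lowest difference was that of RPS27L, a p53-inducible copy of RPS27. It measured 5.98 and 5.87 in Ctrl and 5.70 and 5.86 in rGAL1, a difference of -0.14 (SE 0.12, limma adjusted p = 0.940). The groups were parted by a narrow margin between Ctrl 2 and rGAL1 2, and RPS27 itself differed by -0.024. Without rGAL1 1 the values were -0.062 for RPS27L and 0.0072 for RPS27. RPS28, near the exit of the messenger channel, measured 12.70 and 12.64 in Ctrl and 12.54 and 12.61 in rGAL1, a difference of -0.096 (SE 0.10). RPS15, at the decoding site, measured 11.10 and 11.13 in Ctrl and 11.02 and 11.08 in rGAL1, a difference of -0.065 (SE 0.099). Both genes had rGAL1 arrays below both Ctrl arrays, and without rGAL1 1 their differences were -0.058 and -0.037. RPS6, the target of the S6 kinases below TOR, measured 9.33 and 9.14 in Ctrl and 9.18 and 9.12 in rGAL1, a difference of -0.083 (SE 0.12). Ctrl 1 was high and the other arrays were close together. Without Ctrl 1 the difference was 0.014. RPS29 measured 8.51 and 8.50 in Ctrl and 8.31 and 8.59 in rGAL1, a difference of -0.057, and RPS26 differed by -0.060. In both, rGAL1 1 was lowest and rGAL1 2 highest, and without rGAL1 1 the differences were 0.084 and 0.096.

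At the upper end RPS18, in the head of the small subunit, measured 10.04 and 9.90 in Ctrl and 10.08 and 10.03 in rGAL1, a difference of 0.086 (SE 0.11). Its second probe set, which shares all 4 values with 3 other probe sets of the table, differed by 0.032. RPS16 differed by 0.080 (SE 0.16) on the values given above, and by -0.11 without Ctrl 2. RPS15A measured 8.21 and 8.40 in Ctrl and 8.38 and 8.33 in rGAL1, a difference of 0.047. RPS7 measured 5.89 and 5.93 in Ctrl and 5.995 and 5.896 in rGAL1, a difference of 0.036. These 4 were the small subunit genes with a higher mean in rGAL1, and in each the groups overlapped. Without Ctrl 1 RPS15A gave -0.046, without rGAL1 1 RPS7 gave -0.014, and without Ctrl 2 RPS18 gave 0.018. RPS3, at the entry of the messenger channel, measured 8.83 and 8.89 in Ctrl and 8.89 and 8.80 in rGAL1, a difference of -0.016. RPS9, which bears on the accuracy of decoding, measured 8.29 and 8.10 in Ctrl and 8.15 and 8.21 in rGAL1, a difference of -0.019. Both overlapped, and without Ctrl 2 RPS3 gave 0.014, and without Ctrl 1 RPS9 gave 0.075. The remaining 5 genes ran from -0.033 in RPS24 to -0.054 in RPS21. Among them RPS19, the gene most often mutated in Diamond-Blackfan anaemia, was at -0.035, and it too was picked after its value was seen.

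Members with and without a tract were both mostly lower. The 36 with a tract had a median difference of -0.040 and 27 lower means, and the 9 without one had a median of -0.057 and 6 lower means. Members without a tract included the copies RPL10L and RPS27L, both at a mean under 8. By brightness, 20 of 32 members at a mean of 8 or more were lower, with a median of -0.021, and 15 of 18 dimmer ones, with a median of -0.060. Of the 1702 other named genes at a mean of 8 or more, 44.1% were lower, with a median of 0.011.

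Other lists of translation genes had medians from -0.028 to 0.023. In these lists 0 genes had an unadjusted p under 0.05 in limma, against 2.98% of all named genes. Of 71 mitochondrial ribosomal protein genes, which build the separate ribosome of mitochondria, 37 were lower, with a median of -0.0052. Both rGAL1 values were under both Ctrl values in 12 (16.9%, against 17% of named genes) and over them in 8 (11.3%, against 20.2%). MRPS10 measured 9.25 and 9.13 in Ctrl and 9.40 and 9.29 in rGAL1 (difference 0.16), and MRPS31 6.44 and 6.47 against 6.69 and 6.54 (0.16). At the lower end MRPL17 measured 7.63 and 7.87 against 7.62 and 7.46 (-0.21), and MRPL23 5.91 and 6.07 against 5.80 and 5.85 (-0.17). These 4 genes of both mitochondrial subunits were picked as the highest and lowest differences of the list, and their groups did not overlap. Of 54 listed ribosome assembly factors 37 were measured, 16 lower and 21 higher, with a median of 0.015. EIF6, which keeps new large subunits from joining early, measured 8.63 and 8.63 in Ctrl and 8.45 and 8.50 in rGAL1, a difference of -0.15 (SE 0.098). BYSL, of small subunit assembly, measured 7.96 and 8.06 against 7.90 and 7.85 (-0.13). NOLC1, a nucleolar chaperone, measured 9.49 and 9.44 against 9.65 and 9.55 (0.14), and WDR12, of the complex that processes large subunit RNA, 6.94 and 6.92 against 7.08 and 7.06 (0.14). EIF6, BYSL, NOLC1 and WDR12 were picked as the lowest and highest differences of the list. Their lying on both sides of 0 follows from that pick.

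Of 35 initiation factors 8 were measured, with 3 lower and a median of 0.010. EIF5, which triggers GTP hydrolysis at the start codon, measured 8.20 and 8.04 in Ctrl and 8.31 and 8.32 in rGAL1 (0.20, SE 0.11), and EIF1, which helps choose that codon, 9.66 and 9.69 against 9.64 and 9.57 (-0.064). Of the repressors that TOR controls, EIF4EBP2 measured 10.23 and 10.11 against 10.07 and 10.05 (-0.11), and EIF4EBP1 7.92 and 8.10 against 8.02 and 8.10 (0.050). EIF5, EIF1 and the 2 repressors were picked as the highest and lowest differences of the list. The opposite signs of the repressors follow from that pick, and the groups of EIF4EBP1 overlapped. Of 15 elongation and termination factors 10 were measured, 5 of them lower, with a median of -0.0014. EIF5A2 measured 6.91 and 7.01 against 7.15 and 6.97 (0.099), and EIF5A, its close relative, 6.25 and 6.495 against 6.21 and 6.45 (-0.039). EEF2K, the kinase that restrains elongation, measured 7.18 and 7.14 against 7.31 and 7.16 (0.073), and EEF1D 6.505 and 6.33 against 6.24 and 6.45 (-0.071). The groups of these 4 genes overlapped. Of 22 cytosolic tRNA synthetases and partners 18 were measured, and 13 had higher means, with a median of 0.023. In 7 of the 18 (38.9%) both rGAL1 values were over both Ctrl values, against 20.2% of all named genes and 28.6% of the other named genes at a mean of 8 or more. CARS1, for cysteine, measured 7.03 and 7.01 against 7.18 and 7.15 (0.15), and EPRS1, for glutamate and proline, 9.49 and 9.49 against 9.63 and 9.61 (0.13). The lowest were AIMP1, a scaffold of the synthetase complex, with 8.68 and 8.66 against 8.71 and 8.60 (-0.014), and WARS1, for tryptophan, with 7.35 and 7.19 against 7.38 and 7.13 (-0.015). These lowest 2 were near 0 and overlapped. Of 15 genes of TOR signalling to translation 8 were measured, 5 lower, with a median of -0.019. PDCD4, a translation inhibitor degraded after TOR activity, measured 7.46 and 7.59 against 7.76 and 7.63 (0.16), and MAF1, a repressor of RNA polymerase III, 7.22 and 7.22 against 7.28 and 7.30 (0.065). AKT1S1, a subunit and inhibitor of the TOR complex, measured 7.18 and 7.28 against 7.04 and 6.93 (-0.24, SE 0.11), and RHEB, which activates TOR, 6.12 and 6.42 against 6.30 and 6.04 (-0.10). Groups overlapped in RHEB only among these 4, which were picked as the highest and lowest differences. Over the 8 measured genes both rGAL1 values were under both Ctrl values in 3 and over them in 3. That is 37.5% each, against 17% and 20.2% of all named genes. The median of the TOR list, -0.019, was near that of the large subunit members, -0.022. Differences in median between these lists and the members were not tested.

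Ribosomal proteins whose symbols fall outside the rule were few. FAU, whose product is a ribosomal protein of the small subunit fused to a ubiquitin-like protein, measured 7.21 and 7.18 in Ctrl and 6.94 and 6.99 in rGAL1. Its difference of -0.23 (SE 0.099) was larger than that of any of the 50 members and did not pass (limma, unadjusted p = 0.0723, adjusted p = 0.919). The other measured genes were copies whose groups overlapped. RPL22L1 measured 6.67 and 6.91 against 6.88 and 6.90 (0.095), RPL26L1 6.60 and 6.85 against 6.85 and 6.61 (0.0063), and RPL7L1 7.85 and 7.81 against 7.68 and 7.86 (-0.062).

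**Figure D5:**
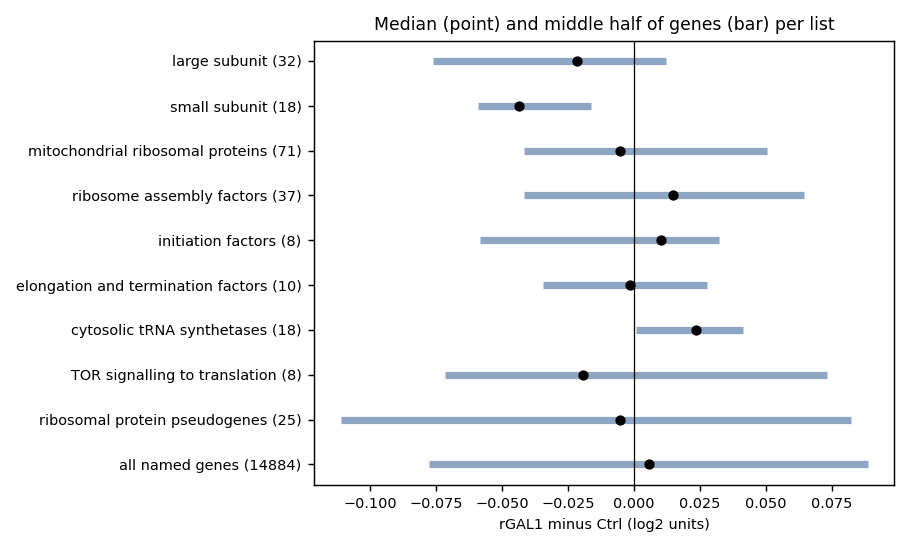
Median difference between rGAL1 and Ctrl (point) and middle 50% of genes (bar) for each list of translation genes (y axis, number of measured genes in brackets), in log2 units (x axis). The small subunit genes have the lowest median, at -0.044, and the tRNA synthetases the highest, at 0.023.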

How the data were processed

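RNA of 4 RWP-1 samples (2 Ctrl, 2 rGAL1, grouped by title) was biotin-labelled from 100 ng each by a whole-transcript kit, per the labels' protocols. The deposited values are log2 expression per probe set, made by the authors with RMA per the submitters' processing notes, which also name limma, without versions or settings. The table held 53617 probe sets, 16098 with 1 symbol and 37519 without a single symbol. All 50 members matched a RefSeq record by Entrez ID. All probe sets were fitted with limma 3.58.1 in R 4.3.3 (lmFit, eBayes, no block), two-sided, with Benjamini-Hochberg adjustment over the 53617. The script was tested on simulated data. Members and lists were chosen with earlier results of these data known. Full values were given, per subunit, for the 6 highest and 6 lowest differences and the 2 largest and 2 smallest SDs, for copies ending in L with their counterparts, and for any member with an unadjusted p under 0.05; RPLP0 to RPLP2, RPSA and RPS27A were also in the rule and are not analysed here. In each list the 2 highest and 2 lowest differences above the dim level were named. Alternatives covered normalization, variance prior, probe set choice, the label of rGAL1 2 and each array left out.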

Additional observations from a re-analysis of the deposited data

How the results depend on the processing

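In each setting that kept 2 arrays in both groups, limma called 0 members at an adjusted p under 0.05. The whole array likewise gave 0 calls at that threshold, so it does not set the members apart. For an unadjusted p under 0.05 the member count was 0 in these limma fits, except for 1, RPL31, when the prior variance followed intensity. Over the 53617 probe sets that count was 2807 in the main fit and 2960 with this prior. The adjusted p of RPL31 in the latter limma fit was 0.902. Same-numbered arrays did not deviate together (r = -0.048 over all probe sets), so the numbers were not taken to pair arrays. With a replicate block 0 members were called, as were 0 of all probe sets. The block cannot move a difference between groups in this balanced design, so the median difference stayed at -0.034. Centring arrays on their medians gave medians of -0.020 over all members and -0.0078 over the large subunit, and counting rGAL1 2 as Ctrl gave -0.034 over the large subunit. With 1 array left out, which leaves a group with a lone array assumed to vary like the others, the median ran from -0.054 to -0.014 over all members, from -0.050 to -0.027 over the large subunit and from -0.054 to -0.0033 over the small subunit, and large minus small from -0.023 to 0.013. Between 30 and 37 of 50 members were lower in these fits. Of the 30 members with full values, 17 changed sign under at least 1 alternative and 15 with an array left out.

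The median SD of large subunit genes was 0.037 to 0.039 with 1 array left out, 0.051 with rGAL1 2 as Ctrl, 0.050 with the mean of a gene's probe sets, 0.060 with the dimmest and 0.046 without the copies. For small subunit genes it was 0.052 to 0.055, 0.053, 0.068, 0.071 (the dimmest) and 0.071 (without the copies), and 0.071 with centring and 0.077 with cyclic loess. A fit without an array takes its SD from fewer pairs, which lowers the median. Median levels were 8.07 to 8.13 (large) and 8.70 to 8.83 (small) without 1 array, 8.04 and 8.57 with the dimmest probe set, and 8.54 and 8.86 without the copies. Leaving out members that share their values removed none of the probe sets used.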

Other observations

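Ribosomal protein pseudogenes with a name of their own gave 25 measured genes, 14 of them above the dim level. Their median difference was -0.0051, with 14 lower and 11 higher in rGAL1. Of the 25, 0 had an unadjusted p under 0.05 (limma), against 2.98% of all named genes. Both rGAL1 values were under both Ctrl values in 4 (16%, against 17% of named genes) and over them in 3 (12%, against 20.2%). RPL13P5 measured 7.77 and 7.60 in Ctrl and 7.83 and 7.81 in rGAL1, a difference of 0.13 (SE 0.11). RPL23AP7 measured 5.51 and 6.11 in Ctrl and 5.65 and 5.36 in rGAL1, a difference of -0.30 (SE 0.24), with Ctrl 2 alone high. RPL23AP53 measured 7.18 and 7.34 against 7.31 and 7.44 (0.12), and RPSAP52 5.87 and 6.30 against 5.77 and 6.04 (-0.18), both overlapping. Pseudogene probe sets varied more between arrays than members, with a median SD of 0.11 log2 units against 0.060, and their median Ctrl level was lower, at 4.93 against 8.49.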
